A study of Mus musculus with 24 samples.

Results

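Thumpd1, Thumpd2, Thumpd3, Nat10 and Trmt112 were followed in all 24 RNA-seq libraries of a study of Thumpd1 knockout (KO) mice. These are the 3 mouse genes named for a THUMP domain, the acetyltransferase that works with Thumpd1, and the small protein that Thumpd2 and Thumpd3 use as a partner. They were taken by symbol and make up 5 of the 55450 genes in the expression table. The libraries came from 3 tissues, the cerebellum, liver and testes, of KO and wild-type (WT) mice, with 4 libraries for each genotype and tissue, and the question was how gene expression changes in each tissue when Thumpd1 is lost.

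The KO line was made by injecting Cas9 protein and a pair of guide RNAs, one aimed at exon 1 and one at exon 4 of Thumpd1, into C57BL/6N fertilized eggs, and the mice were backcrossed on a C57/BL6 background. The KO groups carried the disrupted gene in every cell, so an effect of its loss in one organ on another cannot be told apart from an effect within the organ. More than one line was founded in the study, and the sources used here do not say which of them gave these libraries. The study states for its mice in general an age of 6 to 12 weeks and either sex. The sources used here do not give the sex behind each library, and testes come from males only. Control mice were in general littermates matched to the KO mice in age. The labels name no treatment for any group. The labels number WT libraries from 1 to 4 and KO libraries from 5 to 8 within a tissue. The study describes its RNA-seq samples as biological replicates, and the labels do not say which libraries of different tissues came from one animal.

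Total counts ran from 16353797 to 37889615 per library, and a gene with no counts in a library could still have been present at up to 3 counts. Levels are given as scaled CPM, which are CPM computed after library totals were scaled by the trimmed mean of M values (TMM) over all 24 libraries. The scaling factors were 0.593 to 0.659 in liver and 1.35 to 1.38 in cerebellum. In testes they were 1.12 to 1.15 in WT and 1.20 to 1.28 in KO. The tissue labels were checked with marker genes. The 6 cerebellar markers summed to between 1587 and 1843 scaled CPM in cerebellum and to at most 3.86 in any other library, and 6 hepatocyte markers summed to at least 72025 in liver and at most 1.88 elsewhere. In testes the summed level of 6 spermatid markers was 8264 to 8925 in WT and 5280 to 7331 in KO, and that of 6 Sertoli cell markers was 881 to 1045 in WT and 1052 to 1430 in KO. In whole tissue, fewer cells of a type and less RNA per cell cannot be told apart.

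A THUMP domain is an RNA-binding fold found in proteins that modify tRNA. THUMPD1 has no catalytic domain of its own and acts as an adaptor that presents tRNA to NAT10, which then acetylates a cytidine in the D arm of serine and leucine tRNAs to give N4-acetylcytidine (ac4C). NAT10 also acetylates 18S ribosomal RNA, a reaction guided by small nucleolar RNAs such as Snord13 and thought not to need THUMPD1. THUMPD2 and THUMPD3 are methyltransferases that form N2-methylguanosine, in U6 small nuclear RNA and in tRNA respectively. Both are active only when bound to TRMT112, which also activates TRMT11, ALKBH8, BUD23, N6AMT1 and METTL5.

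Thumpd1 lies on the minus strand of mm10 at chr7:119715093-119720798. Its protein-coding transcript in GENCODE M21 has 4 exons, whose coding parts are 231, 175, 249 and 395 bases long and together hold 350 codons before the stop. Exons 1 and 4, at which the guides were aimed, hold 59.6% of the coding bases. The coding stretches of these exons are shown because they are the parts of the gene that the edit was meant to reach. They are reference sequences of the minus strand, written 5′ to 3′, and not the edited allele. Capitals mark the start codon in the first and the stop codon in the last.
Thumpd1 exon 1, chr7:119720511-119720741: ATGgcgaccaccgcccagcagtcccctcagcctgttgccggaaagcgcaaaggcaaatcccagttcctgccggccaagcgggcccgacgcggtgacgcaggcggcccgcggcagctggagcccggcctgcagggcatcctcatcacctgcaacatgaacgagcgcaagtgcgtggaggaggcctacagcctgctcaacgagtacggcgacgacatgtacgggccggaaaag
Thumpd1 exon 4, first 120 coding bases, chr7:119716950-119717069: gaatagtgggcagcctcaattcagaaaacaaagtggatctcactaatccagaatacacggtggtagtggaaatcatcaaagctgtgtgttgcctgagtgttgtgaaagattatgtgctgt
Thumpd1 exon 4, coding end with the stop codon, chr7:119716672-119716734: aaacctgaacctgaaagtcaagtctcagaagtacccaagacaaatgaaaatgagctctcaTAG
GC made up 66.7% of the bases in the exon 1 stretch and 42.5% in the exon 4 stretch that opens the exon. The last exon also carries 1582 bases after the last sense codon, which is 58.8% of the transcript. Since counts were summed over all exons of a gene, what part of Thumpd1 a count came from was not analysed here.

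The targeted gene was low in every library labelled KO. In cerebellum the 4 WT libraries held Thumpd1 at 16.1, 16.1, 16.3 and 17.8 scaled CPM, from 406 to 539 counts each. The 4 KO libraries there held 2, 1, 1 and 0 counts. In liver the WT libraries stood at 15.5, 15.9, 16.8 and 15.5 scaled CPM and the KO libraries at 0, 1, 4 and 2 counts. Only 1 of these 8 KO libraries, a liver library with 4 counts, exceeded this limit of 3 counts. In testes the WT libraries stood at 21.2, 23.4, 22.1 and 22.7 scaled CPM and the KO libraries at 0.641, 0.933, 0.876 and 0.644, from 23 to 41 counts each. WT and KO did not overlap in any tissue, and every testes KO library lay above every cerebellum and liver KO library.

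Set against the WT libraries of the same tissue, the KO libraries kept 0.243% of the Thumpd1 level in cerebellum (95% exact interval 0.0661% to 0.623%), from 4 counts against 1920. They kept 0.659% in liver (0.264% to 1.36%), from 7 counts against 1194, and 3.47% in testes (2.87% to 4.17%), from 119 counts against 3175. These intervals cover counting error only. The interval in testes lay above both others. The limma-voom log2 change was -4.81 in testes (SE 0.149, adjusted p 2.71e-08). It was -7.47 in liver (SE 0.420, adjusted p 2.77e-05) and -8.72 in cerebellum (SE 0.299, adjusted p 5.25e-09), where so few counts remain that the fitted value depends on the small offset the model adds. Across all genes tested, 6.44% of 16225 were called in cerebellum, 5.91% of 12816 in liver and 20.5% of 19329 in testes.

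The change of Thumpd1 was then compared between tissues with an interaction term over all 24 libraries. Thumpd1 is the edited gene and passed the filter through its WT libraries, so a fall in KO was set by the design. Each difference rests on KO cerebellum counts of 0 to 2, KO liver counts of 0 to 4, or both. Its size and p thus depend on the small offset that the model adds. The fall was smaller in testes than in cerebellum by 3.46 on the log2 scale (95% CI 2.63 to 4.28, adjusted p 1.27e-05), in a comparison that called 14.5% of 11112 genes. It was also smaller in testes than in liver by 2.32 (95% CI 1.49 to 3.15, adjusted p 0.000592), where 15.9% of genes were called. Cerebellum and liver differed by -1.13 (95% CI -1.99 to -0.28), which did not pass (adjusted p 0.0883, 7.67% of genes called). A single quantile-normalized fit of all 24 libraries gave another order, with changes of -7.80 in testes, -7.41 in cerebellum and -5.71 in liver. With quantile normalization the interaction of testes against cerebellum was 2.03 and remained past the threshold. That fit held 11112 genes and the single fit 22678, in which the fall was larger in testes than in cerebellum. The sign of this difference thus depended on the genes kept. The counts themselves do not depend on that choice. In testes the spermatid and Sertoli cell marker sums moved between the same groups, and their part in the Thumpd1 values was not tested.

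**Figure D1:**
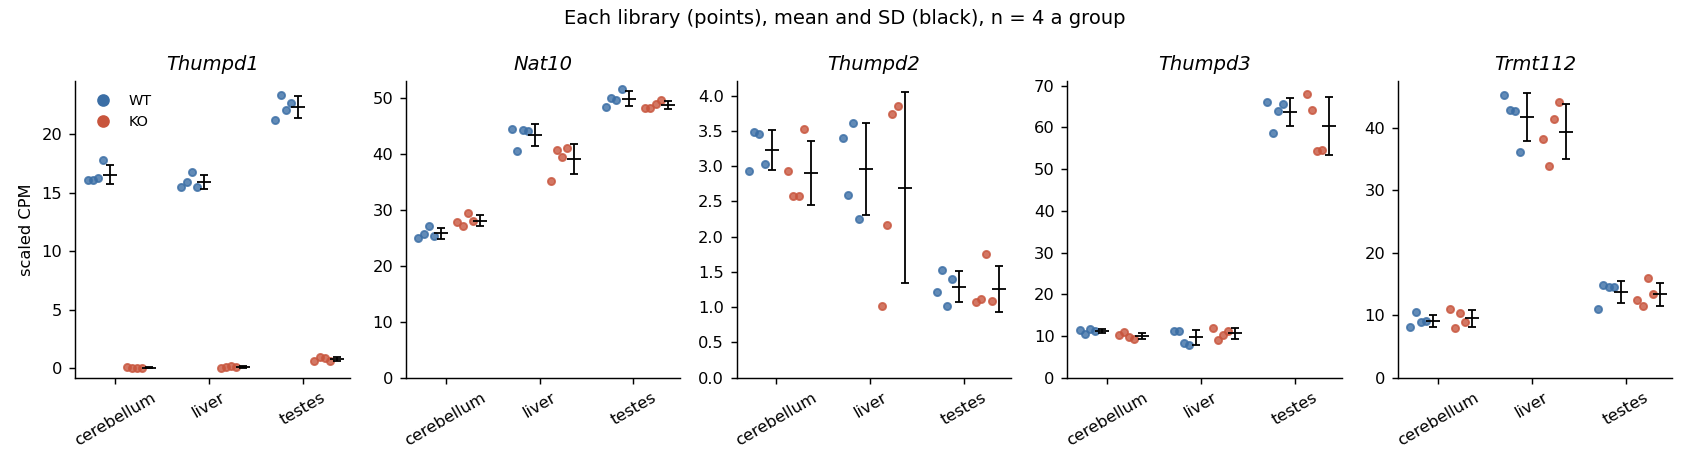
Scaled CPM (y axis) of the 5 genes in each of the 24 libraries, by tissue (x axis), with WT in blue and KO in red. Points are libraries and black bars are the mean and SD of 4. Thumpd1 falls to under 1 scaled CPM in every KO library, while the WT and KO points of the other 4 genes overlap in every tissue.

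None of the other 4 genes passed the test between KO and WT in any tissue, with limma-voom, edgeR or DESeq2. In cerebellum 1 of the 4, Nat10, had an unadjusted p below 0.05 by each of these tools, where 3929 of all 16225 genes had one by limma-voom. In liver and testes none of the 4 had. Their WT and KO ranges overlapped in all 12 pairs of a gene and a tissue. Among all genes tested, the share whose ranges did not overlap was 14.2% for cerebellum, 13.9% for liver and 28.8% for testes.

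Nat10, the enzyme that makes ac4C, was held at 25.0, 25.8, 27.2 and 25.3 scaled CPM in WT cerebellum and at 27.8, 27.1, 29.5 and 27.9 in KO cerebellum. Only 1 KO library lay within the WT range. The log2 change was 0.14 (95% CI 0.03 to 0.24), with an unadjusted p of 0.0156 and an adjusted p of 0.113 by limma-voom. In WT liver Nat10 stood at 44.5, 40.5, 44.4 and 44.1 scaled CPM and in KO liver at 35.3, 40.7, 39.5 and 41.0, which gave a change of -0.084 (95% CI -0.25 to 0.09, adjusted p 0.559). Of the KO libraries, 2 lay above the lowest WT library. In testes the values were 48.5, 49.9, 49.6 and 51.7 in WT and 48.3, 48.2, 49.0 and 49.7 in KO, with a change of 0.057 (95% CI -0.06 to 0.17, adjusted p 0.448). The levels were scaled over all 24 libraries and the change was fitted on the 8 testes libraries. The mean level of Nat10 in testes was 49.9 in WT and 48.8 in KO, while the change was above 0 in every setting (0.03 to 0.06). WT and KO libraries overlapped, and the widest bound of the testes interval was 0.17.

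The effect on Nat10 also did not differ between tissues by the interaction test. The difference was 0.23 for cerebellum against liver (95% CI 0.06 to 0.39, adjusted p 0.0799) and -0.17 for testes against cerebellum (95% CI -0.32 to -0.02, adjusted p 0.118). Both intervals exclude 0 before adjustment over 11112 genes. Leaving out liver WT library 2 or liver KO library 6 brought the first difference past the threshold, at 0.27 and 0.26.

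Thumpd2, the U6 methyltransferase, had the lowest counts of the 5 genes in WT libraries of every tissue, and its intervals were wide. WT cerebellum held 2.93, 3.49, 3.45 and 3.03 scaled CPM and KO cerebellum 2.93, 2.57, 2.57 and 3.53, with a log2 change of -0.18 (95% CI -0.46 to 0.11, adjusted p 0.454). In liver the WT libraries stood at 3.41, 2.59, 3.61 and 2.25 and the KO libraries at 1.01, 2.17, 3.74 and 3.85. The spread within KO liver, from 13 to 87 counts, was larger than the difference between the groups (-0.18, 95% CI -0.89 to 0.53, adjusted p 0.788). In testes Thumpd2 stood at 1.22, 1.52, 1.02 and 1.41 in WT and at 1.07, 1.11, 1.75 and 1.09 in KO, a change of -0.034 (95% CI -0.50 to 0.43, adjusted p 0.921).

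Thumpd3, the tRNA methyltransferase, stood out by its level in testes. The WT testes libraries held 66.2, 58.8, 63.9 and 65.5 scaled CPM and the KO libraries 68.1, 64.1, 54.2 and 54.6, a log2 change of 0.005 (95% CI -0.16 to 0.17, adjusted p 0.968). The KO libraries fell into a higher and a lower pair, and the WT libraries lay between their extremes. Here too the mean level, 63.6 in WT and 60.3 in KO, goes against the sign of a change that is near 0. In cerebellum the values were 11.4, 10.5, 11.6 and 11.2 in WT and 10.2, 11.0, 9.78 and 9.25 in KO (-0.16, 95% CI -0.31 to 0.00, adjusted p 0.209). In liver they were 11.3, 11.2, 8.31 and 7.74 in WT and 12.0, 9.03, 10.3 and 11.2 in KO (0.15, 95% CI -0.16 to 0.47, adjusted p 0.56). No pair of tissues differed in the effect on Thumpd3, where the widest difference was -0.34 for cerebellum against liver (95% CI -0.73 to 0.05, adjusted p 0.267). Thumpd3 shares 145 bases of exon with Gt(ROSA)26Sor on the other strand. That gene fell in KO testes from 8.52 to 11.2 scaled CPM in WT to 5.38 to 7.94 in KO (log2 change -0.47, adjusted p 0.0316 by limma-voom). The call was lost in 5 of 8 fits without 1 library. Gt(ROSA)26Sor was named after its values were seen, and since the strand setting of the counting is not given in the sources used here, reads of the pair may not be fully separated.

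Trmt112, the activating partner of both methyltransferases, was held at 8.10, 10.4, 8.96 and 9.01 scaled CPM in WT cerebellum and 10.9, 7.89, 10.3 and 8.83 in KO cerebellum. The log2 change was 0.050 (95% CI -0.19 to 0.29, adjusted p 0.82). In liver the values were 45.1, 42.8, 42.7 and 36.1 in WT and 38.1, 33.8, 41.4 and 44.0 in KO (-0.010, 95% CI -0.17 to 0.15, adjusted p 0.954). In testes they were 11.0, 14.7, 14.6 and 14.5 in WT and 12.5, 11.5, 15.9 and 13.4 in KO (-0.017, 95% CI -0.28 to 0.25, adjusted p 0.932). WT and KO libraries were mixed in order in all 3 tissues. Of its 1233 exon bases, 482 overlap Prdx5 or Esrra on the other strand. Prdx5, a peroxiredoxin, was called lower in KO cerebellum (-0.18, adjusted p 0.0449) and KO liver (-0.28, adjusted p 0.0422) and was also named after its values were seen. Each Prdx5 call was lost in 6 of 8 fits without 1 library (all but those without WT library 4 or KO library 6 in cerebellum and KO library 5 or 6 in liver). A pair of processed pseudogenes of Trmt112 held at most 0.747% of its count in any library.

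The 5 other partners of Trmt112 were taken as a list. Trmt11 and Alkbh8 act in tRNA methylation, Bud23 and Mettl5 methylate 18S ribosomal RNA, and N6amt1 methylates translation release factor 1. None of the 5 was called in cerebellum, liver or testes by limma-voom, edgeR or DESeq2. By each tool 1 of them had an unadjusted p below 0.05 in cerebellum and 1 in liver, and in testes 0 had by limma-voom and 1 by each of the other tools. Over all genes limma-voom called 6.44%, 5.91% and 20.5% in cerebellum, liver and testes, and 3929 of 16225, 2981 of 12816 and 7145 of 19329 genes had an unadjusted p below 0.05. In cerebellum the list's median log2 change was -0.11 (-0.01 over all genes tested), in liver it was 0.09 (0.00 over all genes), and testes gave 0.06 (0.00 over all genes). Bud23 was the only partner whose groups did not overlap, in liver, with 32.7 to 35.2 scaled CPM in WT and 24.7 to 32.5 in KO (-0.22, 95% CI -0.42 to -0.02, adjusted p 0.183). This is 1 of 5 in liver, beside 13.9% of all genes, and 0 of 5 in the other tissues, beside 14.2% in cerebellum and 28.8% in testes. Bud23 passed when liver KO library 5 was left out, at -0.30. Alkbh8 in cerebellum lay at 37.4 to 41.4 in WT and 34.2 to 38.3 in KO (-0.13, 95% CI -0.24 to -0.02, adjusted p 0.147), and it passed at -0.17 without cerebellum KO library 6.

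**Figure D2:**
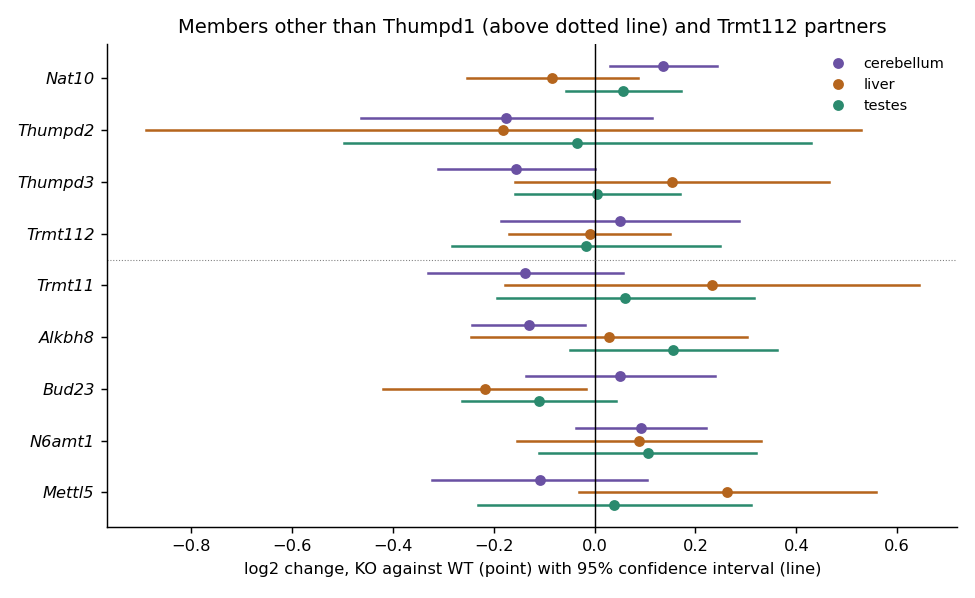
Log2 change between KO and WT (x axis) of Nat10, Thumpd2, Thumpd3 and Trmt112, above the dotted line, and of the 5 other Trmt112 partners, below it, in each tissue (colours), with 95% confidence intervals of the limma-voom fit as lines. Most intervals include 0, the widest is that of Thumpd2 in liver (-0.89 to 0.53), and none of the 27 changes passed after adjustment.

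A second list held 11 tRNA enzymes, chosen around the D arm and around serine and leucine tRNAs, not all of which act on the tRNAs that carry ac4C. It comprised the dihydrouridine synthases Dus1l, Dus2, Dus3l and Dus4l, the guanosine methyltransferase Trmt1, the serine tRNA methyltransferases Trmt44 and Mettl6, and the seryl- and leucyl-tRNA synthetases of cytosol (Sars, Lars) and mitochondria (Sars2, Lars2). Dus3l acts in the variable region and not in the D arm, and Sars2 and Lars2 charge mitochondrial tRNAs. In cerebellum 2 of 11 rose and none fell, where 6.44% of all genes were called. In liver 1 of 11 fell (5.91% of all genes called), and in testes none was called (20.5% of all genes called). The other tools also called Trmt1, which edgeR and DESeq2 counted among 3 of 11 in cerebellum and which was the 1 gene that DESeq2 called in testes, where edgeR called none. In testes 4 of the 11 had an unadjusted p below 0.05 by limma-voom, beside 7145 of all 19329 genes. The median log2 change of the 11 was 0.10 in cerebellum, whereas liver gave -0.06 and testes -0.09.

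Sars, the cytosolic seryl-tRNA synthetase, rose in cerebellum from 50.4 to 53.9 scaled CPM in WT to 64.0 to 66.0 in KO (log2 change 0.33, SE 0.037, adjusted p 0.000372). The groups were separated by a gap wider than the range of either. In liver it changed by 0.02 (95% CI -0.12 to 0.16) and in testes by 0.09 (95% CI -0.10 to 0.28). The effect in cerebellum was larger than in liver by 0.32 (adjusted p 0.0177), and that in testes was smaller than in cerebellum by -0.27 (adjusted p 0.0289). Lars, the leucyl counterpart, rose in cerebellum from 25.7 to 27.0 in WT to 28.7 to 31.4 in KO (0.18, adjusted p 0.0395), again with no overlap. The Lars call was lost in 7 of 8 fits that left out a library, all but the one without KO library 6, and at log2 changes of 0.16 to 0.19. Its effect differed between cerebellum and liver by 0.26 (adjusted p 0.0418), which was lost in 13 of 16 such fits. Of the 6 cerebellar markers, Gabra6 (-0.26) and Neurod1 (-0.22) of granule cells were called lower in KO cerebellum and Pcp2 (0.24) of Purkinje cells higher. Calb1 (-0.05) and Pvalb (-0.06), also made by Purkinje cells, and Cbln1 (0.01), also made by granule cells, were not called. Of 6 midbrain genes 3 were tested and all 3 were called, Tfap2d (4.38) and Th (0.46) higher and Tfap2b (-0.21) lower. Beside these marker calls, 6.44% of all genes tested in cerebellum were called. The 6 genes of this list summed to 44.5 to 48.7 scaled CPM in WT and 42.8 to 44.4 in KO, with Foxa2 at 0 in every cerebellum library. In WT liver they summed to 62.6 to 95.1 with Th, Slc6a3, Tfap2b and Tfap2d at 0, so the sum does not measure midbrain tissue. Of 3 blood genes 2 were tested, and Alas2 was called lower (-0.58) while Hbb-bs was not called (-0.54), with a summed level of 3.86 to 4.79 scaled CPM in WT and 2.29 to 4.06 in KO. The 4 macrophage genes tested, of 5 listed, lay at 0.10 to 0.22 and none was called, with a summed level of 23.4 to 27.9 in WT and 26.3 to 29.2 in KO. The part of these cell markers in the Sars and Lars values was not tested.

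Dus1l, a dihydrouridine synthase, fell in liver from 104 to 129 scaled CPM in WT to 86.0 to 95.2 in KO (log2 change -0.28, adjusted p 0.0243), with no overlap. The call was lost without liver WT library 1, WT library 2, KO library 7 or KO library 8. Of the 6 hepatocyte markers, which lay at -0.51 to 0.34 in KO liver, 1 was called higher and 1 lower, beside 5.91% of all genes. Their part in the Dus1l values was not tested. The change of Dus1l was 0.07 in cerebellum and -0.13 in testes, neither of which passed, and cerebellum and liver differed by 0.37 (adjusted p 0.0263). Dus3l showed a difference of 0.39 between the same tissues (adjusted p 0.0166), from changes of 0.17 in cerebellum and -0.23 in liver that did not pass on their own. Trmt1 differed between testes and cerebellum by -0.41 (adjusted p 0.000719), with 76.3 to 82.1 scaled CPM in WT testes against 66.1 to 69.9 in KO. Dus2 differed by -0.46 between testes and liver (adjusted p 0.00418) and by -0.34 between testes and cerebellum (adjusted p 0.0289), of which the latter was lost in 6 of 16 fits without 1 library (cerebellum WT library 3 or KO library 5 or 7, testes WT library 2 or 3 or KO library 7). Dus3l differed by -0.35 between testes and cerebellum (adjusted p 0.011). Without TMM factors, on plain library totals, the differences of Dus1l, Dus3l, Lars and Sars between cerebellum and liver and those of Dus2, Dus3l, Sars and Trmt1 between testes and cerebellum no longer passed. Their values were then 0.35, 0.38, 0.24 and 0.29 in that order between cerebellum and liver and -0.26, -0.28, -0.20 and -0.34 between testes and cerebellum.

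The groups did not overlap for Trmt44, Lars and Sars in cerebellum, for Dus1l and Dus3l in liver, and for Trmt1, Dus1l, Dus2 and Dus3l in testes. These are 3, 2 and 4 of 11, beside 14.2%, 13.9% and 28.8% of all genes in the same order. The 4 in testes were all lower in KO on the scaled CPM. The TMM factors of testes KO libraries exceeded those of WT, and by the quantile-normalized fit the log2 changes of these 4 lay between -0.12 and -0.25. The 6 Sertoli cell markers called higher and the 4 of 6 spermatid markers called lower in KO testes moved between the same libraries, and their part in these values was not tested. Trmt44 stood at 9.68 to 10.5 scaled CPM in WT cerebellum and 8.47 to 9.60 in KO (-0.10, adjusted p 0.442). Lars2 reached 9317 scaled CPM in liver WT library 4, from 149236 counts, while the other 3 WT libraries lay at 121, 191 and 441 and the KO libraries at 107 to 450, so its change of -1.29 (95% CI -3.74 to 1.15) rests on that library. Snord13, the small nucleolar RNA that guides ac4C to ribosomal RNA, held 0 to 15 counts per library and was not tested.

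Since the edit removes or breaks sequence within Thumpd1, genes around it were also followed. In mm10, 18 other protein-coding genes have a part within 500 kb of the gene. Of those expressed, 0 of 7 were called in cerebellum, 1 of 9 in liver and 2 of 10 in testes by limma-voom, beside 6.44%, 5.91% and 20.5% of all genes. In cerebellum 3 of the 7 had an unadjusted p below 0.05 (3 by edgeR, none by DESeq2), beside 3929 of all 16225 genes, and neither other tool called any. The nearest gene, Acsm4, lies 528 bp away and held too few counts to be tested. Acsm1, the nearest tested gene towards lower coordinates at 52578 bp, stood at 318 to 380 scaled CPM in WT liver and 276 to 350 in KO (-0.09, adjusted p 0.366). Acsm3, a mitochondrial acyl-CoA synthetase gene and the nearest tested one on the other side at 40125 bp, rose in liver (log2 change 0.46, SE 0.090, adjusted p 0.0159). Its scaled CPM was 74.4 to 101 in WT and 98.0 to 136 in KO, so the groups overlapped, and it shares 1962 bases with Eri2 on the other strand. Eri2 itself did not move with it in liver (-0.03, 95% CI -0.38 to 0.33). The part of the hepatocyte markers in the Acsm3 values was not tested. In testes Dcun1d3, a regulator of cullin neddylation 131998 bp away, fell from 74.2 to 78.2 in WT to 58.4 to 67.8 in KO (-0.18, adjusted p 0.0397). Anks4b, a brush-border scaffold gene 453060 bp away, fell from 1.60 to 2.21 in WT to 0.855 to 1.55 in KO (-0.64, adjusted p 0.0305), and by -1.55 in the single fit of all 24 libraries. WT and KO did not overlap for either gene, and the Dcun1d3 call was lost in 6 and the Anks4b call in 5 of 8 fits that left out a library. All WT libraries but number 2, and KO libraries 7 and 8, were among these in both cases, and WT library 2 in the case of Dcun1d3. In the same testes libraries 6 of 6 Sertoli cell markers were called higher in KO, by 0.42 to 0.69, and 4 of 6 spermatid markers lower, and their part in these values was not tested. The groups also did not overlap for some neighbours that were not called. These were Eri2 (7.88 to 8.29 scaled CPM in WT and 6.72 to 7.34 in KO, adjusted p 0.112) and Lyrm1 (3.82 to 4.33 and 4.70 to 5.14, adjusted p 0.147) in cerebellum, Anks4b (64.5 to 73.3 and 43.9 to 64.0, adjusted p 0.193) in liver and Dnah3, an axonemal dynein gene (263 to 271 and 204 to 254, adjusted p 0.705), in testes. With Dcun1d3 and Anks4b in testes this makes 2 of 7 in cerebellum, 1 of 9 in liver and 3 of 10 in testes, beside 14.2%, 13.9% and 28.8% of all genes. These ranges use CPM scaled over all 24 libraries, where the TMM factors of testes KO libraries exceeded those of WT.

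**Figure D3:**
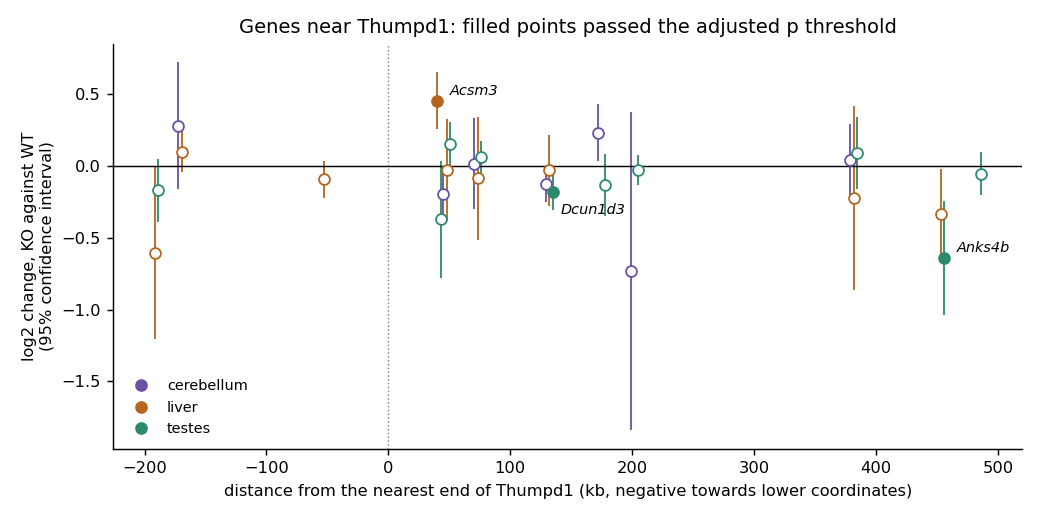
Log2 change between KO and WT (y axis, with 95% confidence intervals of the limma-voom fit) of the protein-coding genes tested within 500 kb of Thumpd1, by distance in kb from the nearest end of the gene (x axis) and tissue (colour). Filled points passed after adjustment: Acsm3 in liver at 0.46, and Dcun1d3 at -0.18 and Anks4b at -0.64 in testes. Points of different tissues at one gene are drawn slightly apart.

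The levels of the 5 genes were next compared across WT tissues. Per kb of exon, Trmt112 was the most abundant member in all 3, at 7.40 ± 0.79 scaled CPM per kb in cerebellum, 33.8 ± 3.2 in liver and 11.1 ± 1.4 in testes (SD, n = 4). Thumpd2 was the least abundant in all 3, at 1.44 ± 0.13, 1.32 ± 0.29 and 0.577 ± 0.099 in the same order. Thumpd1 on this scale varied less across tissues, at 5.52 ± 0.28, 5.30 ± 0.20 and 7.44 ± 0.31, and Nat10 stood at 3.59 ± 0.14, 6.02 ± 0.27 and 6.94 ± 0.19. This order depends on the scaling. With library totals that leave out the 20 most abundant genes of each tissue, Thumpd1 stood at 8.58, 5.07 and 9.19 CPM per kb. Nat10 then stood at 5.58, 5.77 and 8.57, so which of the pair varied less is not settled. Thumpd3 was near Thumpd2 in cerebellum (1.70 ± 0.077) and liver (1.47 ± 0.29) and second only to Trmt112 in testes (9.70 ± 0.51). Thumpd2 and Thumpd3 did not differ beyond their spread in liver on this length, and Trmt112 and Thumpd3 in testes were close. With the length of the longest transcript in place of all exons, Thumpd3 exceeded Thumpd2 in cerebellum (3.64 against 1.44) and liver (3.14 ± 0.61 against 1.32 ± 0.29). On that length Thumpd3 came first in testes at 20.7 and Trmt112 second at 13.9, and Nat10 (11.0) came before Thumpd1 (8.32).

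**Figure D4:**
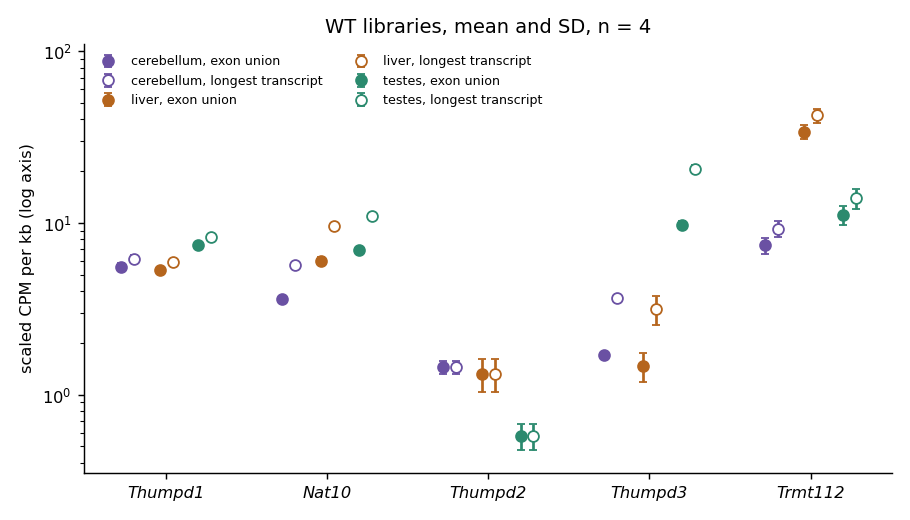
Scaled CPM per kb (log axis) of each gene (x axis) in WT cerebellum, liver and testes (colours), as mean and SD of 4 libraries, with the length taken over all exons (filled) or from the longest transcript (open). Thumpd2 lies lowest in every tissue, Thumpd3 is lifted in testes and Trmt112 in liver.

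In tests over the 12 WT libraries nearly all genes differed between tissues. Between cerebellum and liver 87.5% of 21697 genes were called, between testes and liver 90.6%, and between testes and cerebellum 90.3%, so that a call alone says little, and 2, 5 and 5 of the 5 members were called in that order. Nat10 was lower in cerebellum than in liver by -0.80 (95% CI -0.91 to -0.70, adjusted p 6.91e-09) and higher in testes than in cerebellum by 0.94 (95% CI 0.85 to 1.04, adjusted p 3.79e-10). Between testes and liver it differed by 0.14 (95% CI 0.05 to 0.23, adjusted p 0.00861). Thumpd1 did not differ between cerebellum and liver (0.00, 95% CI -0.14 to 0.13, adjusted p 0.991), and testes exceeded both others by 0.42 (adjusted p 1.64e-05 against liver and 5.01e-06 against cerebellum). Under the other settings this excess ranged from 0.22 to 1.37 against liver and from 0.17 to 0.48 against cerebellum, and it was called in all of them.

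Thumpd3 was higher in testes by 2.66 than in liver (95% CI 2.42 to 2.90) and by 2.50 than in cerebellum (95% CI 2.31 to 2.69). The 4 WT testes libraries lay between 58.8 and 66.2 scaled CPM and no WT library of the other tissues exceeded 11.6. Thumpd2 went the other way and was lower in testes by -1.26 than in liver (adjusted p 4.56e-05) and by -1.33 than in cerebellum (adjusted p 1.26e-05). Trmt112 was lower by -2.25 in cerebellum (95% CI -2.52 to -1.98) and by -1.68 in testes (95% CI -1.91 to -1.45) than in liver, where its 4 WT libraries held 36.1 to 45.1 scaled CPM against at most 14.7 elsewhere. The higher level in testes than in cerebellum was smaller, at 0.56 (adjusted p 0.00139).

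Several of these tissue differences rest on how libraries are scaled. The TMM factors of liver lay far from those of the other tissues, and the cause of the moves was not tested. Over all genes the median difference between cerebellum and liver was -0.02 with TMM factors, -0.21 after quantile normalization and 1.18 with plain library totals. With plain totals, Nat10 was higher in cerebellum than in liver by 0.40 and Thumpd1 by 1.20, and all 5 members were called. The share of calls that were higher in cerebellum moved from 49.5% to 78.5%. For testes against liver the median moved from 0.83 to -0.26 and 1.78 and this share from 61.5% to 46.7% and 74.8%, Nat10 no longer passed after quantile normalization (0.08), and Thumpd2 no longer passed with plain totals (-0.31). Thumpd2 between cerebellum and liver was 0.07 with TMM factors, -0.71 after quantile normalization and 1.27 with plain totals, so no direction is given for it. The lower level of Thumpd2 in testes became -4.86 against liver and -4.15 against cerebellum after quantile normalization. With plain totals Trmt112 differed from liver by -1.04 in cerebellum and -0.73 in testes, and testes exceeded cerebellum by 0.31. The higher level of Thumpd3 in testes and of Trmt112 in liver kept their direction under all of these settings. So did the lower level of Thumpd2 in testes. These settings do not address reads of the genes that overlap Thumpd3 or Trmt112 on the other strand. Of these 3 genes, 1 was called higher and 2 lower in WT testes than in WT liver (-1.71 to 2.52). In WT cerebellum against WT liver 1 was also called higher and 2 lower (-1.57 to 1.34). The part of such reads in the WT values of Thumpd3 and Trmt112 was not tested.

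**Figure D5:**
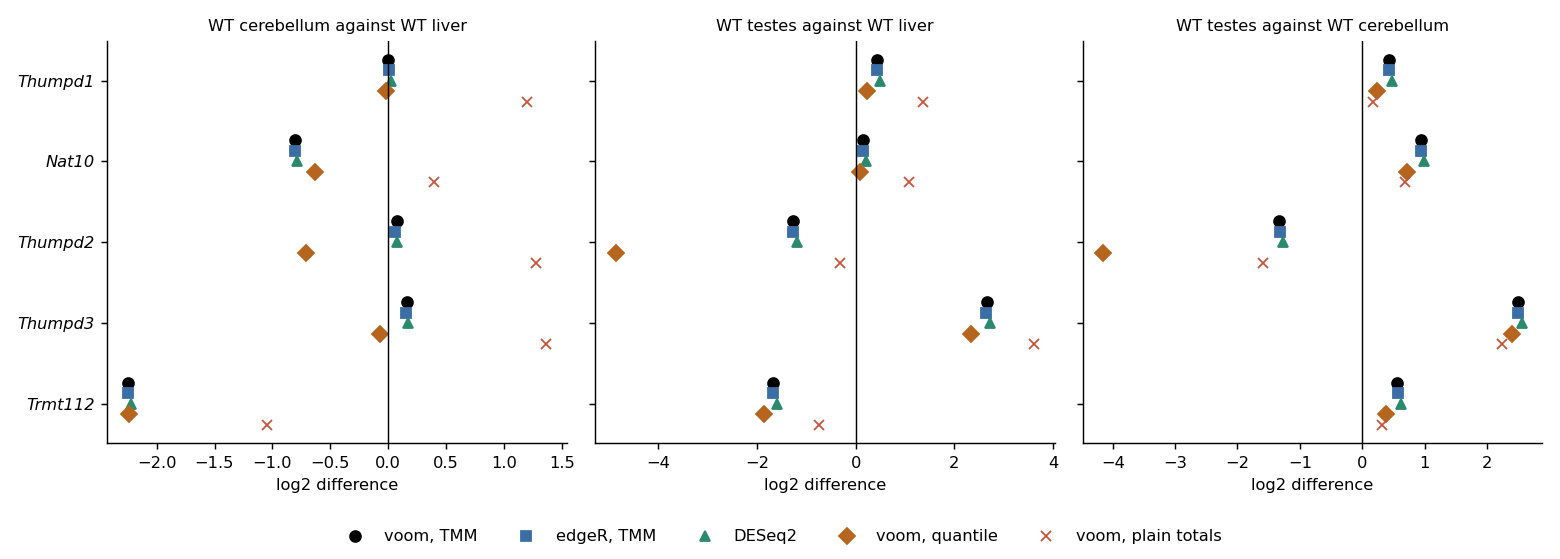
Log2 difference between WT tissues (x axis) of each gene under 5 ways of scaling and testing (symbols), in 3 panels. Plain library totals move every cerebellum and testes value against liver up, and Nat10 in cerebellum against liver goes from -0.80 to 0.40, while Thumpd3 stays above 2 in both testes panels.

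Ratios of one member to another within a library do not depend on the scaling, and 5 of them were compared between tissues per kb of exon, a choice made after the data were seen. Nat10 stood to Thumpd1 at 0.651 in WT cerebellum (0.593 to 0.696 over the 4 libraries), 1.14 in liver (1.06 to 1.20) and 0.932 in testes (0.891 to 0.954). The 3 ranges did not overlap. Trmt112 stood to Thumpd3, its methyltransferase partner, at 4.36 in cerebellum (3.76 to 5.30), 23.4 in liver (20.3 to 27.3) and 1.15 in testes (0.888 to 1.33). Thumpd3 stood to Thumpd2 at 1.19, 1.14 and 17.3 in the same order. The size of each ratio depends on the length used, and with the longest transcript Nat10 stood to Thumpd1 at 0.924, 1.61 and 1.32, Trmt112 to Thumpd3 at 2.56, 13.7 and 0.676, and Thumpd3 to Thumpd2 at 2.54, 2.44 and 36.9, so which of a pair is higher in testes is not settled for the first and second. Between tissues a ratio of 2 genes changes by the same factor on either length. Trmt112 stood to the sum of its 7 partners at 0.451 in cerebellum, 1.78 in liver (1.64 to 1.86) and 0.573 in testes, and at 0.357, 1.24 and 0.373 with the longest transcript. In exact two-sided permutation tests of 4 against 4 libraries, for which 0.0286 is the smallest p possible, 12 of 15 comparisons reached that p (adjusted p 0.0357). The exceptions were Thumpd3 to Thumpd2 in cerebellum against liver (exact p 0.714), Trmt112 to Thumpd2 in testes against liver (exact p 0.0857), and Trmt112 to the sum of its partners in testes against cerebellum (exact p 0.0571).

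Of the 5 other partners of Trmt112, 1 was called lower and 3 higher in cerebellum than in liver, and 3 lower in testes than in liver. Between testes and cerebellum all 5 were called, 1 higher and 4 lower. These are 4, 3 and 5 of 5, beside 87.5%, 90.6% and 90.3% of all genes in the same order. N6amt1, higher in cerebellum than in liver by 0.42, no longer passed after quantile normalization (0.15). Bud23, which like Trmt112 was lower in both, differed by -2.0 in cerebellum and -1.21 in testes and came to -0.80 and -0.26 with plain totals. Trmt11 and Alkbh8 were higher in cerebellum than in liver by 1.67 and 1.54, while in testes they differed from liver by -0.01 and -0.07. With plain totals the last 2 differences became 0.93 and 0.87 and after quantile normalization -1.88 and -0.46, so no order of testes and liver is given for these genes. With plain totals also, N6amt1 and Mettl5, which were lower in testes (-0.43 and -0.92), became 0.52 and 0.03.

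For each member the 3 genes with the most similar centred pattern over the 12 WT libraries were found by the root mean square difference of centred log2 values, among 21697 genes. For Thumpd1 these were Chd1 (0.07), Cops8 (0.08) and Sp1 (0.08), where the median over all genes was 1.27. For Nat10 they were Tceanc2, Psme3 and Nr2c1 (0.07 each, median 1.33). For Thumpd3 they were Fgfr1op (0.07), Kdm5b (0.08) and Zc3h14 (0.10, median 1.60). Thumpd2 came nearest to Slx1b (0.11), Zxdc (0.13) and Pdlim7 (0.14, median 1.49), and Trmt112 to Plxnb2, Ndufa8 and Dnajb12 (0.10 each, median 1.72). None of the 15 is a member or a listed partner. The 12 libraries fall into 3 tissues, so the measure describes mainly the 3 tissue means.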

How the data were processed

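Paired reads of a stranded, ribosomal RNA-depleted total RNA kit were aligned by the authors with STAR to mm10, and RSEM gave the deposited expected counts for genes of GENCODE M21. Tool versions and the strand setting of the counting are not given in the sources used here. The values are not normalized, all 24 columns matched the labels, and 0 columns were left unmatched.

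Genes with at least 1 CPM in at least 4 libraries were kept. As in the study's methods, KO and WT were compared within each tissue by limma-voom after quantile normalization (limma 3.58.1, R 4.3.3), with Benjamini-Hochberg adjustment over all genes tested and a threshold of 0.05. WT tissues and interactions were tested by limma-voom with TMM factors (edgeR 4.0.16). Leave-one-out fits kept the full set of tested genes. edgeR and DESeq2 1.42.0 were run on rounded counts. Permutation tests were run in scipy 1.17.1. Scripts were tested on simulated data.

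Named genes were the 5 members, the 5 other Trmt112 partners, members of the tRNA list and genes within 500 kb of Thumpd1 that were called or did not overlap, the nearest tested gene on each side, and the 3 nearest patterns, for which 0.25 was added to CPM. The members and lists were chosen with earlier results of these data known. The ratios and the plain library totals were added after the data were seen.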

Additional observations from a re-analysis of the deposited data

Results flagged for a closer look

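Of 126 sets of 4 libraries of one gene, tissue and genotype, 11 held a library that stood apart from the other 3 by Dixon's criterion, where chance gives about 1 in 20. Among the members these were Thumpd1 in cerebellum WT library 4 (17.8 scaled CPM), Thumpd2 in testes KO library 7 (1.75), Nat10 in liver WT library 2 (40.5) and Trmt112 in testes WT library 1 (11.0). Among the listed genes they were Trmt11 in liver WT library 1 (3.85), Alkbh8 in cerebellum KO library 6 (38.3), Dus4l in cerebellum KO library 8 (4.15), Trmt44 in cerebellum WT library 2 (10.5) and KO library 6 (8.47), Mettl6 in cerebellum WT library 1 (19.7), and Lars2 in liver WT library 4 (9320).

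The effect of KO differed between tissues by the interaction test for Thumpd1, by 2.32 for testes against liver and 3.46 for testes against cerebellum on the log2 scale. These values rest on KO counts of 0 to 4 in liver and 0 to 2 in cerebellum. For cerebellum against liver the effect of KO differed for Dus1l (0.37), Dus3l (0.39), Lars (0.26) and Sars (0.32). For testes against liver it differed for Dus2 (-0.46) and for Gt(ROSA)26Sor (-1.12), which overlaps Thumpd3. For testes against cerebellum it differed for Dus2 (-0.34), Dus3l (-0.35), Sars (-0.27) and Trmt1 (-0.41).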

How the results depend on the processing

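Thumpd1 was called lower in KO in every tissue under every alternative and without any 1 library, and none of the other 4 members was called in a tissue under any of them. Some values changed sign, which included values far from 0 between WT tissues. In testes the KO change became 0.046 with edgeR, 0.039 with DESeq2 and 0.029 with TMM factors for Thumpd2, -0.013, -0.016 and -0.017 for Thumpd3, and 0.032, 0.028 and 0.038 for Trmt112. For WT cerebellum against liver, Thumpd1 moved to 0.0023 with edgeR, 0.021 with DESeq2, 0.061 without a filter and 1.20 with plain totals, Thumpd2 to -0.71 and Thumpd3 to -0.072 after quantile normalization, and Nat10 to 0.40 and Mettl5 to 0.97 with plain totals, which called 5 members in place of 2. For WT testes against liver, plain totals gave 0.93 for Trmt11, 0.87 for Alkbh8, 0.52 for N6amt1 and 0.028 for Mettl5, Trmt11 was 0.053 with DESeq2 and 0.060 without a filter, and Alkbh8 was 0.0037 without a filter. For the KO effect in cerebellum against liver, quantile normalization gave 0.21 for Thumpd1, 0.050 for Thumpd2 and 0.017 for N6amt1. In testes against liver it was -0.0011 for Thumpd2 with edgeR and 0.036 for Trmt112 with plain totals, and in testes against cerebellum -0.020 for Thumpd2 after quantile normalization and 0.056 for N6amt1 with plain totals. The median level of the members per kb moved from 5.52 to 6.16 with the longest transcript as length. The cause of these moves was not tested.

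Without 1 library, the KO change of Thumpd2 ranged from -0.41 to 0.12 in liver and -0.24 to 0.058 in testes, that of Thumpd3 from -0.047 to 0.047 in testes, and that of Trmt112 from -0.015 to 0.13, -0.047 to 0.025 and -0.12 to 0.044 in cerebellum, liver and testes. Those of the partners ranged from -0.020 to 0.10 (Bud23, cerebellum), -0.024 to 0.12 (Alkbh8, liver) and -0.042 to 0.11 (Mettl5, testes). Between WT tissues the range was -0.028 to 0.024 for Thumpd1 and -0.040 to 0.17 for Thumpd2 in cerebellum against liver, and -0.093 to 0.13 for Trmt11 in testes against liver. The difference in KO effect ranged in cerebellum against liver from -0.35 to 0.20 for Thumpd2 and -0.090 to 0.012 for N6amt1, in testes against liver from -0.24 to 0.31 for Thumpd2, -0.12 to 0.044 for Trmt112, -0.019 to 0.13 for Alkbh8 and -0.11 to 0.0017 for N6amt1, and in testes against cerebellum from -0.071 to 0.21 for Thumpd2, -0.0068 to 0.12 for Thumpd3 and -0.076 to 0.040 for N6amt1. For the KO effect in cerebellum against liver, 0 to 1 members were called, where the 1 was Nat10 without liver WT library 2 or liver KO library 6, and Thumpd1 without liver KO library 5 (-1.60) or cerebellum KO library 5 (-1.46).

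Counts of called genes moved by more than 1.5 times in some settings. From 1045 in cerebellum they moved to 628 without a filter, 234 with all 24 libraries in one fit and 398 to 2321 without 1 library, the last without KO library 6 and the others that moved without WT library 1, 3 or 4 or KO library 5, 7 or 8. From 757 in liver they moved to 1408 with DESeq2, 492 without a filter, 1685 in the joint fit and 292 to 798 without 1 library (moved without WT library 1, 2 or 3 or KO library 8), and from 3957 in testes to 1741 to 4931 (moved without WT library 2, 3 or 4 or KO library 7). For the KO effect in cerebellum against liver, 1 fit without a library moved the count from 852 to 548 (548 to 1230 over these fits). For the KO effect, plain totals gave 1057 in place of 1763 for testes against liver and 1021 in place of 1616 for testes against cerebellum, where quantile normalization gave 982. Plain totals also moved the share of these calls that were higher from 50.8% to 29.8% in cerebellum against liver, from 50.1% to 60.4% in testes against liver and from 49.0% to 79.8% in testes against cerebellum. Without a filter the KO calls of Lars, Prdx5 in both tissues, Anks4b, Dcun1d3 and Gt(ROSA)26Sor were lost. The joint fit of 24 libraries also ended those of Lars and Prdx5 in cerebellum, and quantile normalization ended the difference of Gt(ROSA)26Sor between testes and liver. Leaving out 1 library ended the call of Gt(ROSA)26Sor in KO testes in 5 of 8 fits and, of 16 fits for a KO effect, those of Dus1l in 4, Dus2 in testes against cerebellum in 6, Sars in testes against cerebellum in 5 and Gt(ROSA)26Sor in 6, while the Sars rise in cerebellum and the Acsm3 rise in liver were called in all 8.

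No paired analysis was possible because KO and WT libraries of a tissue share no replicate numbers. Between tissues, 6 of 24 same-numbered pairs of libraries correlated above 0.1 (range -0.18 to 0.23) and 10 were best correlated with their own number, so the numbers were not taken as pairs. With the replicate block 2, 5 and 5 members were called between WT tissues and 0, 1 and 1 for the KO effect, as without it, and the call of Dus2 in testes against cerebellum was lost (-0.34). The replicate block moved the count of called genes for the KO effect in cerebellum against liver from 852 to 1448.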
